A study of Homo sapiens with 6 samples.

Results

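Expressed antisense RNA genes were the rows of the count table with the biotype antisense and a mean of at least 3 CPM (counts relative to the library total) over the 6 libraries. Of 58735 genes in the table, 5583 carried that biotype and 3950 of these had at least 1 count in some library. The level was reached by 163, and SNHG7, SNHG10 and SNHG12 were left out because their names begin with SNHG, which left 160 genes. They were chosen by their mean CPM over all 6 libraries alone, whatever their difference between the groups. FRMD6-AS1 (3.02 CPM) and AC097534.2 (3.03 CPM) lay just inside the level, and AP001469.3 (2.99 CPM) and AC012467.2 (2.99 CPM) just outside it. The mean of 1 group was under the level in 21 of the 160, in SCC for 16 and in RCC for 5, so these entered through the other group.

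The libraries came from MDA-MB-231, a triple-negative breast cancer cell line of wild-type (WT) genotype in every group. All cells carried PKH26, a membrane dye that is diluted by division, and had grown for 12 days after staining. Slow-cycling cells (SCC) were the brightest 1%, and rapid-cycling cells (RCC) were sorted at moderate brightness by the protocol and at low brightness by the sample characteristics. Each group had 3 biological replicates according to the labels, all from this 1 line, and the question was how gene expression differs between the 2 fractions. Summed counts ran from 17655855 to 27831824. The line's markers VIM, CD44, EGFR and AXL lay at 33.3 FPKM (a level corrected for gene length and depth) or more in every library, and ESR1, PGR and CDH1 at 0.0698 or less, with EPCAM at 1.42 to 2.29 and ERBB2 at 6.88 to 10.2. The summed FPKM of 4 leukocyte markers was 0.217 to 0.495 in SCC and 0.219 to 0.260 in RCC, that of 2 endothelial markers 0.418 to 0.434 and 0.322 to 0.453, and that of 3 fibroblast markers 1.21 to 1.62 and 0.884 to 1.17, nearly all of it COL1A1. In bulk libraries such as these, fewer cells that transcribe a gene and less RNA per cell cannot be told apart.

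An antisense RNA is transcribed from the strand opposite another gene, here called its partner. Some start at a shared promoter and run away from the partner (head-to-head), some run into its 3′ end (tail-to-tail), and some lie within its introns. Known antisense RNAs act in different ways: they can silence neighbouring genes in cis, as KCNQ1OT1 does at an imprinted locus, pair with the partner's transcript, host small RNAs, or have no known function. Many are short-lived nuclear transcripts that are degraded by the RNA exosome.

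By position, 150 of the 160 overlapped a protein-coding gene on the other strand, and these had 149 distinct partners. In 35 genes more than 1 protein-coding gene lay opposite, and the longest overlap alone set the partner and the arrangement. Of all 160, 46 were tail-to-tail with the partner, 40 head-to-head, 47 inside it and 17 spanned it. The other 10 did not overlap any gene on the opposite strand, although their biotype is antisense. They include OTUD6B-AS1, TGFB2-AS1 and MAFG-DT, whose names point to a neighbour they do not overlap. The overlap ran from 29 bases, for ARRDC1-AS1, to 125082 bases, for ENTPD1-AS1. In 57 genes no exonic base was free of other genes on either strand, and in 78 over 50% of exonic bases lay in introns of other genes. Of the 160, 44 overlapped a gene on the same strand, where strand would not separate the reads. The submitters' text does not say whether strand was used in counting. Reads from introns or exons of overlapping genes, the partner included, can therefore not be told from antisense reads.

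Tail-to-tail overlaps are shown first, since 5 of the 7 pairs whose ratio differed between the groups had this arrangement. ARRDC1-AS1 and ARRDC1 share 29 bases in all. For the other 3 pairs the longest shared exonic stretch was taken, and its 30 bases on the side toward the partner's 3′ end are printed. The positions are chr9:137615332-137615360, chr9:128109216-128109245, chr1:155320637-155320666 and chr4:7772820-7772849 (GRCh38, from GENCODE 29 transcripts). Each line reads 5′ to 3′ on the named gene's own strand, and capitals mark AATAAA, the hexamer best known as a polyadenylation signal.
ARRDC1-AS1: tctacaAATAAAgtgttttatttacagga
ARRDC1: tcctgtaAATAAAacactttatttgtaga
SLC25A25-AS1: tcagctttgaaacaactttattagaaggct
SLC25A25: agccttctAATAAAgttgtttcaaagctga
RUSC1-AS1: gaaggttacacgattatttattgagagcct
FDPS: aggctctcAATAAAtaatcgtgtaaccttc
AFAP1-AS1: ctgtggactcgatgtccctgacttgggctc
AFAP1: gagcccaagtcagggacatcgagtccacag
The partner's strand held the hexamer in ARRDC1, SLC25A25 and FDPS, and the antisense strand in ARRDC1-AS1. The last 30 bases of 30.6% of 83129 protein-coding transcripts hold it on their own strand.

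RefSeq (GRCh38.p14) had promoter windows of 300 bases around the start for 65 of the 160 antisense genes and 110 of the 149 partners. The following 3 motifs were searched on both strands: TGANTCA, the AP-1 site, because the series names AP-1 in its title; TGACGTCA, the cAMP response element; and TATAAA, the TATA box. The AP-1 site stood in 8 of 84 windows of antisense genes (9.52%) and 8 of 178 of partners (4.49%), against 7.71% of all 35116 windows. The cAMP response element stood in 1 (1.19%) and 5 (2.81%), against 1.85%. The TATA box stood in 5 (5.95%) and 12 (6.74%), against 11.5%. The windows below belong to loci on which the results turn. For SLC25A25 (chr9:128098257-128098556, plus strand) and AFAP1 (chr4:7872259-7872558, minus strand) only windows that hold TGACGTCA were printed, and capitals mark it. For CSRNP1 the window with the highest start coordinate was printed (chr3:39154592-39154891, minus strand), and it holds none of the 3 motifs. In RUSC1-AS1 (chr1:155323796-155324095, minus strand) capitals mark the 191 bases that also belong to a window of RUSC1 on the other strand. These matches describe letters only.
SLC25A25: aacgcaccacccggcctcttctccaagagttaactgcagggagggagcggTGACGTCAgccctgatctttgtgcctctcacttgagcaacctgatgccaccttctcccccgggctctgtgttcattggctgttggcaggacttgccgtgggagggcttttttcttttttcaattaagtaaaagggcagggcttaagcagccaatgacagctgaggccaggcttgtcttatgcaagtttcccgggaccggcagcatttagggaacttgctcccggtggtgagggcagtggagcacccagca
AFAP1: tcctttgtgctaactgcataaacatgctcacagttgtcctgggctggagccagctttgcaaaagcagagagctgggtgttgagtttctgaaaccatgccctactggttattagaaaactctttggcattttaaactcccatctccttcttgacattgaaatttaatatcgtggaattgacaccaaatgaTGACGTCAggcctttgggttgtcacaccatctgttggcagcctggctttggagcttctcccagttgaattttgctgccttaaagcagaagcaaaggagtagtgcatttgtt
CSRNP1: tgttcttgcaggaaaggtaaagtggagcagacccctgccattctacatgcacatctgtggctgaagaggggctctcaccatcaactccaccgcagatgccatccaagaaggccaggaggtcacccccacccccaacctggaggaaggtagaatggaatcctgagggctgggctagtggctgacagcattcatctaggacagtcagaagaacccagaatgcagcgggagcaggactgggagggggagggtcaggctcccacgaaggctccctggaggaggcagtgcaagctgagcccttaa
RUSC1-AS1: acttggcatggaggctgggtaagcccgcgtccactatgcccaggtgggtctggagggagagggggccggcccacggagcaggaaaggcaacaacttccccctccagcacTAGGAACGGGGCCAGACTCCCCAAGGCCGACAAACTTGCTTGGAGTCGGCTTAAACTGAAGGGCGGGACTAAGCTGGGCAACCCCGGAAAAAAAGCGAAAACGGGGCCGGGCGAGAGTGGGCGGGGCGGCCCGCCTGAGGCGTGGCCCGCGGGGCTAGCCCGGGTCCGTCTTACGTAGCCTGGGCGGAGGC

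Most antisense genes lay slightly lower in slow-cycling cells. The log2 fold change (SCC over RCC) was below 0 in 112 of 160 (70.0%), against 49.5% of all 15881 genes tested, and its median was -0.15 against 0.00. Few single genes were called: at an adjusted p under 0.05 (edgeR's quasi-likelihood test, Benjamini-Hochberg over all genes), 1 of 160 rose (background 1.69%) and 4 fell (background 0.378%). AC092053.3 rose, and RUSC1-AS1, KCNQ1OT1, MCM3AP-AS1 and LINC00624 fell. All 160 passed the filter on low counts. Among the 139 genes with both group means at 3 CPM or more, the median was -0.13, none rose and 3 fell.

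Every SCC library lay below every RCC library in 34 of the 160 genes (21.3%, background 13.4%), and above in 9 (5.63%, background 14.4%). At an unadjusted p under 0.05, 23 were lower (background 8.27%) and 3 higher (background 11.4%). The split was seen among abundant genes too: of the 40 at 10 CPM or more, 14 had all SCC libraries lower and 0 all SCC libraries higher. Their median was -0.17, and that of the 120 below 10 CPM was -0.14.

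The 160 genes took 0.156%, 0.166% and 0.160% of all counts in SCC replicates 1 to 3, and 0.179%, 0.175% and 0.182% in RCC replicates 1 to 3. The groups did not overlap, and the SCC mean (0.161% ± 0.00497, SD, n = 3) was 89.9% of the RCC mean (0.179% ± 0.00368, SD, n = 3). AFAP1-AS1 and FGD5-AS1 held 18.9% of these counts. Without AFAP1-AS1 the means were 0.143% and 0.160%. The median deviation of the antisense genes from their mean over the 6 libraries was -0.05, -0.03 and -0.06 (log2) in SCC and 0.07, 0.03 and 0.09 in RCC. For all genes tested it stayed between -0.01 and 0.01.

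**Figure D1:**
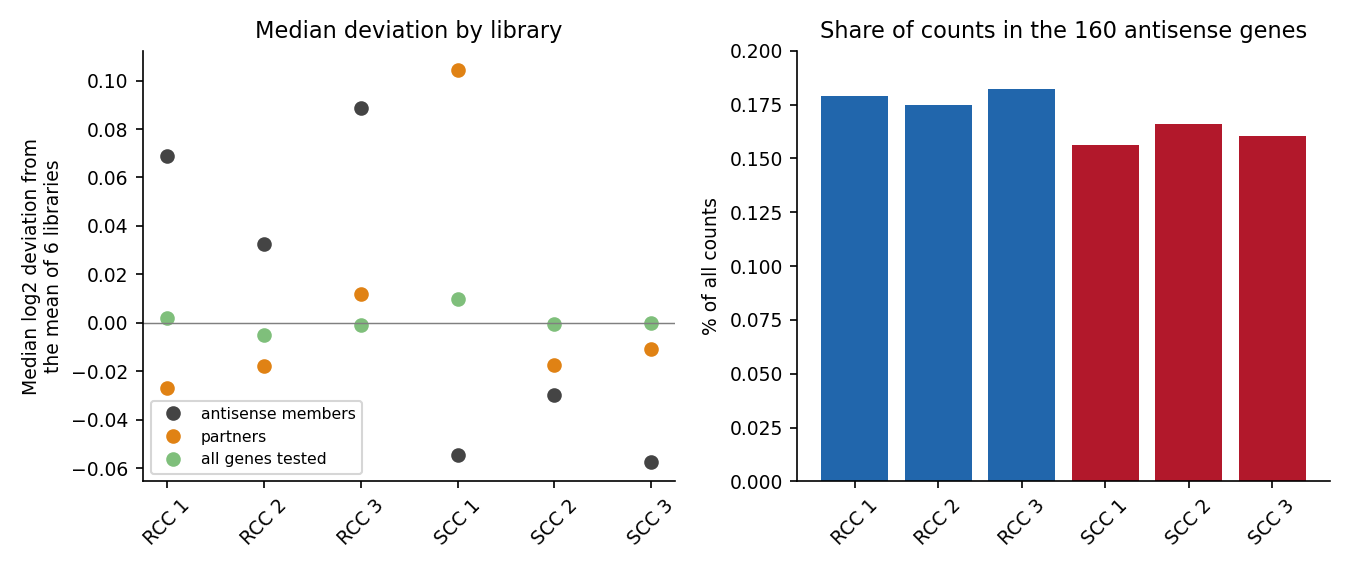
Left: median log2 deviation from the mean of the 6 libraries (y axis) in each library, for the antisense genes, their partners and all genes tested. Right: percent of all counts in the 160 antisense genes, 1 bar per library. The antisense genes lie below 0 in the 3 SCC libraries and above 0 in the 3 RCC libraries, and their share is 0.156% to 0.166% in SCC and 0.175% to 0.182% in RCC.

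Of 149 partners, 132 were tested, their median log2 fold change was 0.00, and 49.2% lay below 0. By library, their median deviation was 0.10 in SCC replicate 1 and between -0.03 and 0.01 in the other 5. CSRNP1, SLC25A25 and ZER1 rose (2.27% of the 132, near the background of 1.69%), and 0 fell in edgeR's test (background 0.378%). At an unadjusted p under 0.05 in the same test, 19 of the 132 were higher (background 11.4%) and 9 lower (background 8.27%). DESeq2 called 5 partners higher (background 2.51%) and 2 lower (background 0.763%). Protein-coding genes in the CPM range of the antisense genes had a median of 0.01 (n = 9835). Other kinds of noncoding gene also lay below 0: the median was -0.08 for 155 long intergenic RNAs (lincRNAs) in the same range, of which 1 rose and 5 fell (backgrounds 1.69% and 0.378%), and -0.18 for 140 sense-intronic RNAs at any level. All SCC libraries lay lower in 34 of these 155 lincRNAs (21.9%, background 13.4%) and higher in 12 (7.74%, background 14.4%), a split like that of the antisense genes. The 730 antisense genes tested below the level had a median of -0.04. None of these differences between classes was tested.

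By arrangement, the median was -0.12 for the 40 head-to-head genes, -0.17 for the 46 tail-to-tail, -0.21 for the 47 inside the partner and -0.18 for the 17 spanning it. Of the 4 that fell, 3 were tail-to-tail and KCNQ1OT1 lay inside its partner. The 10 with no opposite-strand overlap had a median of 0.22, and 4 of these 10 lay below 0. By overlap of exons, the median was -0.14 for the 66 genes with at least 50% of exonic bases free of other genes, and -0.18 for the 78 with over 50% in introns of other genes. By base composition, the median was -0.20 in the 80 genes under the group's median GC content (78.8% below 0) and -0.08 in the 80 at or over it (61.3% below 0). The part of GC content in this shift was not tested. With an offset for it the median stayed below 0.

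**Figure D2:**
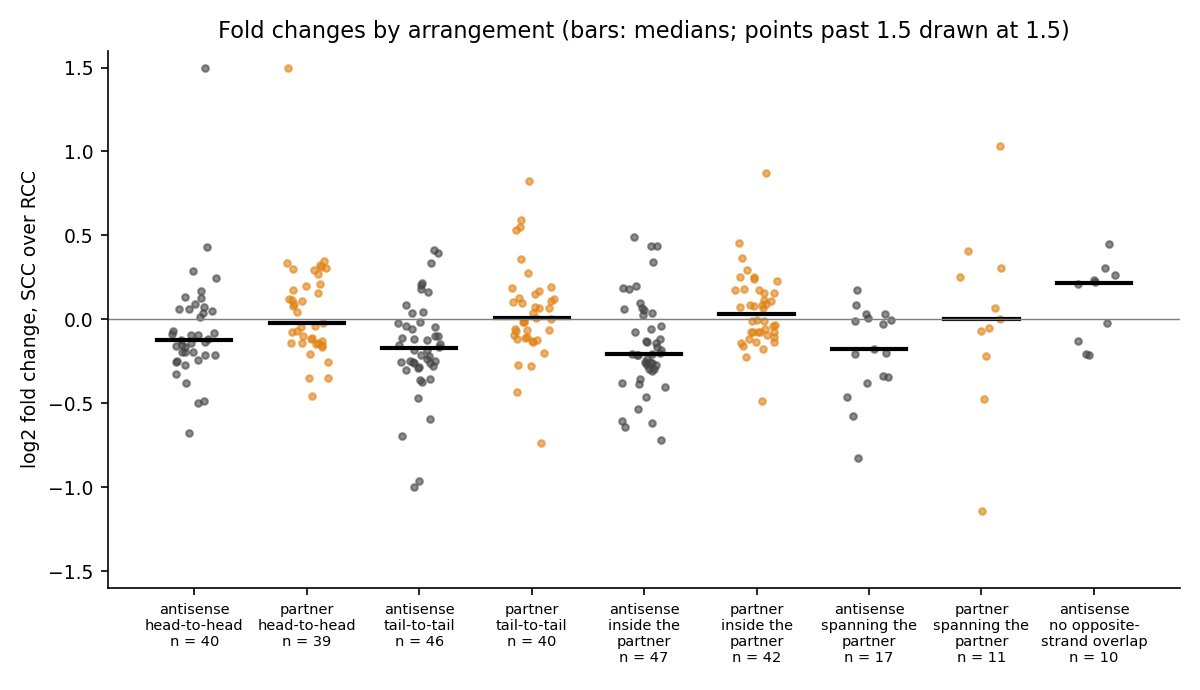
Log2 fold change, SCC over RCC (y axis), of each antisense gene and of each tested partner, by arrangement, with bars at the medians and points beyond 1.5 drawn at 1.5. The medians of the antisense genes lie between -0.21 and -0.12 in the 4 overlapping arrangements and at 0.22 in the 10 genes without overlap, while those of the partners lie between -0.02 and 0.03.

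AC092053.3 (chr3:39148281-39172952, plus strand) was the 1 antisense gene that rose. Its TMM-scaled CPM was 6.37, 5.87 and 4.78 in SCC and 0.434, 0.572 and 1.12 in RCC. The groups did not overlap, and only the SCC libraries carried it past the 3 CPM level. The log2 fold change was 3.04 (SE 0.30, edgeR adjusted p = 3.0e-04). Its partner CSRNP1 encodes a nuclear protein first described as induced by AXIN1, and 88.7% of the exonic bases of AC092053.3 lie in CSRNP1 introns. CSRNP1 was at 143, 113 and 126 CPM in SCC and at 26.4, 25.3 and 26.7 in RCC, with a log2 fold change of 2.29 (edgeR adjusted p = 4.0e-07). The antisense count was 3.79% to 5.18% of the CSRNP1 count in SCC and 1.64% to 4.18% in RCC, ranges that overlap, and the difference of the pair was not called (limma adjusted p = 0.23). Because strand is not stated, reads from CSRNP1 introns cannot be told from AC092053.3 reads. The next highest log2 fold change among genes with all SCC libraries higher was that of AC010761.1 (0.49, adjusted p = 0.069), inside RPL23A. AC010761.1 was called in 6 of the alternatives and was chosen after its values were seen.

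RUSC1-AS1 (chr1:155316863-155324176, minus strand) fell. Its CPM was 4.81, 3.98 and 5.49 in SCC and 9.98, 9.21 and 8.65 in RCC, and the groups were apart. The log2 fold change was -0.96 (SE 0.15, edgeR adjusted p = 0.0086). Its end runs into FDPS, farnesyl diphosphate synthase of the mevalonate pathway, which was at 109, 108 and 110 CPM in SCC and 109, 120 and 114 in RCC (log2 fold change -0.07). At its other end it overlaps RUSC1 (chr1:155320896-155331114, plus strand), a signalling adaptor gene, whose reads cannot be told apart there without strand. RUSC1 was at 98.3, 90.8 and 87.2 CPM in SCC and 74.2, 78.5 and 75.9 in RCC. Its log2 fold change was 0.27, which was not called (adjusted p = 0.085), although the groups did not overlap.

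KCNQ1OT1 (chr11:2608328-2699994, minus strand) is the imprinted antisense RNA that silences neighbouring genes from the paternal chromosome. It stood at 12.6, 13.1 and 11.8 CPM in SCC and 21.1, 16.2 and 19.8 in RCC, with no overlap. The log2 fold change was -0.61 (SE 0.12, edgeR adjusted p = 0.028). KCNQ1, the potassium channel gene that contains it, was too low to be tested: 0.148, 0.306 and 0.237 CPM in SCC and 0 counts in all 3 RCC libraries. Nearly all exonic bases of KCNQ1OT1 (99.9%) lie in KCNQ1 introns, and KCNQ1 reads were few.

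MCM3AP-AS1 (chr21:46229217-46259390, plus strand) was at 4.70, 5.26 and 5.26 CPM in SCC and 7.59, 8.16 and 8.82 in RCC. The groups were separate, and the log2 fold change was -0.69 (SE 0.14, edgeR adjusted p = 0.030). MCM3AP, whose product takes part in messenger RNA export, was at 88.1, 72.4 and 77.4 CPM in SCC and 73.6, 75.6 and 78.5 in RCC. Its groups overlapped.

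LINC00624 (chr1:147258885-147517875, minus strand) was at 2.18, 3.73 and 2.65 CPM in SCC and 5.68, 5.82 and 5.42 in RCC. Its SCC mean of 2.85 CPM is under the 3 CPM level, so RCC (mean 5.64) carried it past the level. The groups did not overlap, and the log2 fold change was -0.999 (SE 0.21, edgeR adjusted p = 0.034). Its partner CHD1L, a chromatin remodeller, had a log2 fold change of -0.01, which changed sign in 5 of the alternatives. Of the exonic bases of LINC00624, 62.4% are free of other genes.

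**Figure D3:**
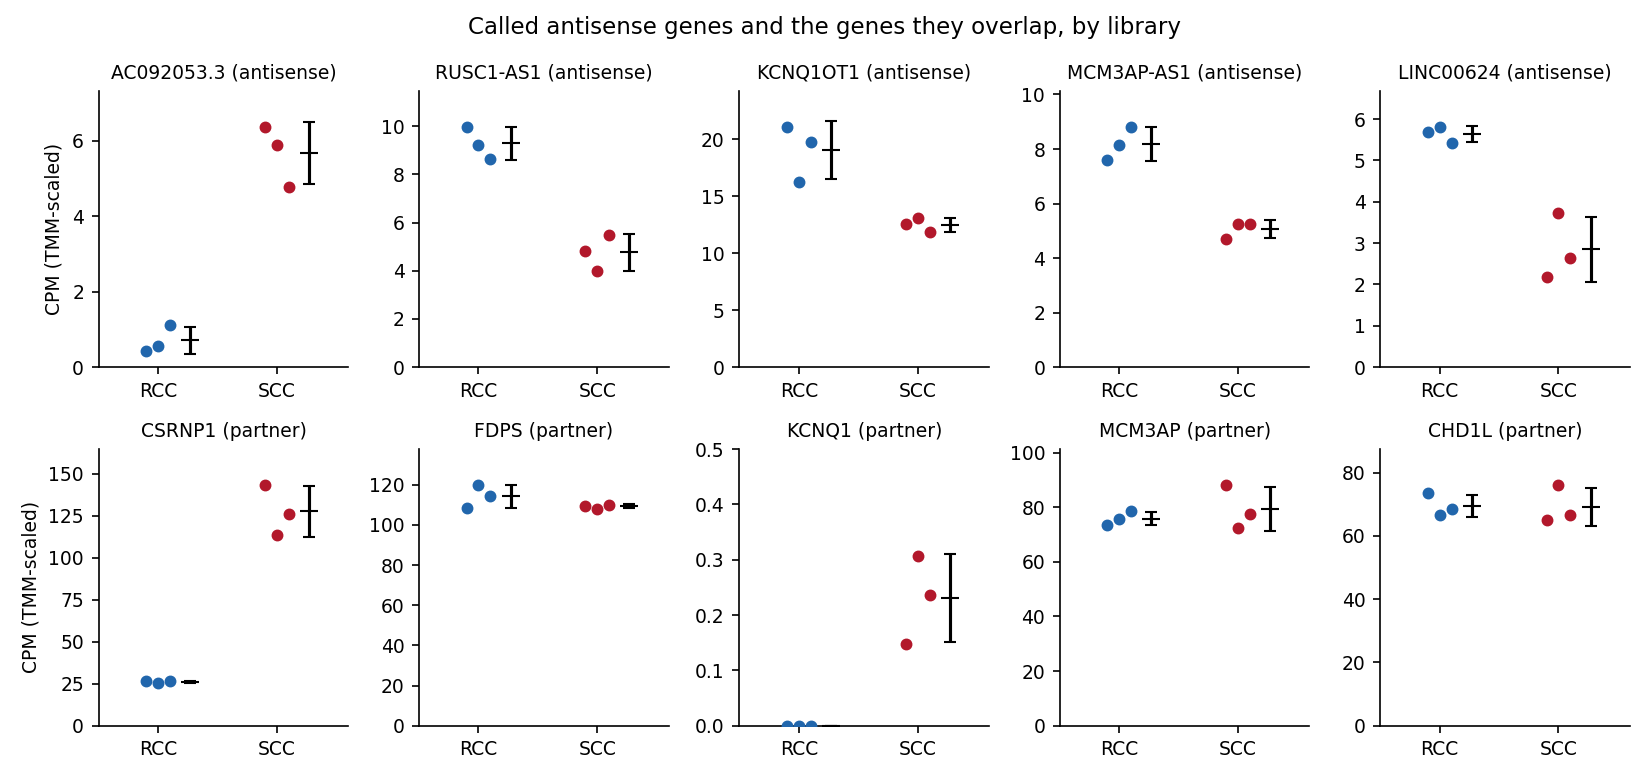
TMM-scaled CPM (y axes, each from 0) of the 5 called antisense genes (top) and their partners (bottom) in the 3 RCC and 3 SCC libraries, with the mean and SD beside the points. SCC and RCC points are apart in all 5 antisense genes, and FDPS, MCM3AP and CHD1L overlap between the groups.

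DLEU2 spans TRIM13, a ubiquitin ligase gene, and hosts microRNA genes. Its CPM was 7.55, 10.8 and 10.8 in SCC and 13.4, 15.6 and 14.1 in RCC. The groups did not overlap, but the log2 fold change of -0.58 was not called in edgeR (adjusted p = 0.079), while DESeq2 gave an adjusted p of 0.042. Over the 18 alternatives its adjusted p ran from 0.0029 to 0.44 and it was called in 7.

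On the length-corrected FPKM scale, the highest antisense genes were AC099850.3 (mean of the 6 libraries 85.1), FGD5-AS1 (27.4), ZFAS1 (26.7) and AFAP1-AS1 (26.2). These were chosen after their values were seen. The median of the 160 genes was 2.11 FPKM. Of the 150 with a partner, 53 stood above it in mean FPKM and 97 below, and in the 133 tested pairs the median ratio of antisense to partner was 0.368. AC099850.3, a gene of 321 bases inside PRR11, stood above PRR11 (46.1 FPKM), and 69.8% of its bases lie in PRR11 introns and 30.2% in its exons.

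None of the 8 genes with the highest CPM was called. Their log2 fold changes all lay below 0, from -0.32 in GABPB1-AS1 to -0.05 in AFAP1-AS1, but AFAP1-AS1 and THAP9-AS1 crossed 0 in 1 alternative each. ZFAS1, a host of small nucleolar RNAs, was at 44.3, 62.2 and 58.4 CPM in SCC and 65.7, 71.6 and 58.2 in RCC, groups that overlap (log2 fold change -0.25, adjusted p = 0.29). Its start overlaps that of ZNFX1, a helicase gene, at 97.2 to 104 CPM in SCC and 102 to 106 in RCC. FGD5-AS1 was at 129, 139 and 139 CPM in SCC and 137, 154 and 149 in RCC, and its partner FGD5 was listed at 0.111 CPM or less. The nuclear receptor gene NR2C2 at its other end was at 97.7 to 105 CPM in SCC and 107 to 116 in RCC.

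Of the other abundant genes, GABPB1-AS1 starts head-to-head with GABPB1, a subunit of an ETS-type transcription factor. It was at 40.5, 53.0 and 41.8 CPM in SCC and 57.5, 53.9 and 57.6 in RCC, without overlap (adjusted p = 0.14). PSMA3-AS1 and the proteasome gene PSMA3 had nearly the same log2 fold change, -0.29 and -0.28. OTUD6B-AS1 was at 28.96, 39.3 and 35.9 CPM in SCC and 39.7, 39.7 and 40.8 in RCC (log2 fold change -0.21). For NNT-AS1 the log2 fold change was -0.16, and for NNT, the mitochondrial transhydrogenase, it was -0.10. TMPO-AS1 went the other way at 0.29 (adjusted p = 0.37), and TMPO, a lamina-associated protein gene, stood at -0.17.

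The difference between an antisense gene and its partner was tested as the log2 ratio of their counts in each library. Limma was run over all 737 antisense pairs with enough counts, of which 133 held 1 of the 160 antisense genes. Of these 133, 6 ratios fell (background 1.49%) and 1 rose (background 0.407%). These backgrounds are over all 737 pairs, the 133 included, of which 11 fell and 3 rose. The median difference of the 133 was -0.15, against -0.09 in the 604 other pairs. The antisense gene lay below 0 and the partner above in 43 pairs, the reverse held in 13, both were below in 52 and both above in 25. Across the 133 pairs, which share the 6 libraries, Pearson's r of the fold changes was 0.54 and Spearman's rho 0.30. Without AC092053.3 they were 0.22 and 0.28.

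**Figure D4:**
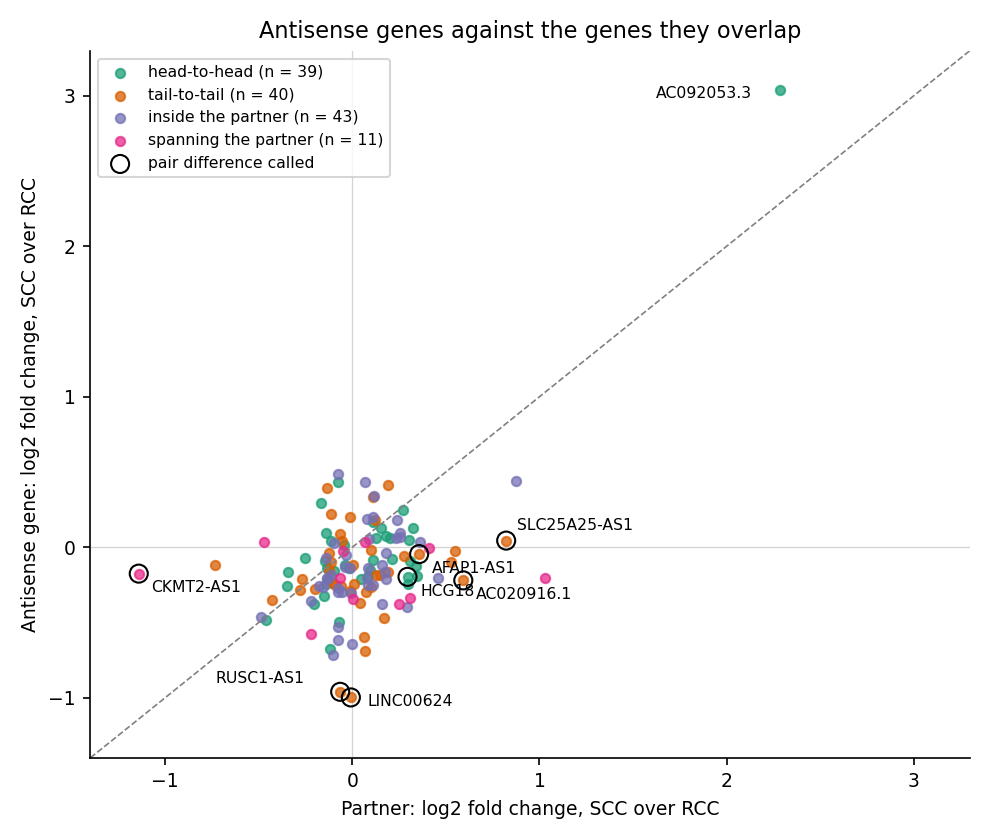
Log2 fold change, SCC over RCC, of each antisense gene (y axis) against its partner (x axis) for the 133 tested pairs, by arrangement, with the line of equality dashed and called pairs ringed. The 6 pairs called lower lie under the line, CKMT2-AS1 over it, and AC092053.3 stands alone at the top right.

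The called ratios differed in which gene of the pair moved. For SLC25A25-AS1 the antisense gene was at 11.1, 9.90 and 9.47 CPM in SCC and 9.85, 8.11 and 11.8 in RCC, while SLC25A25, a mitochondrial ATP-magnesium carrier gene, was at 52.8, 44.5 and 46.4 in SCC and 26.7, 25.8 and 28.8 in RCC. SLC25A25 rose (log2 fold change 0.82, edgeR adjusted p = 7.5e-04), the antisense gene stood at 0.04, and the ratio went from 31.4% to 40.9% in RCC to 20.4% to 22.3% in SCC. For RUSC1-AS1 and LINC00624 the antisense gene fell, and the partner was near 0 as given above.

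In the other called pairs neither gene passed the test by itself. AFAP1-AS1 stood at -0.05 and AFAP1, an actin filament-associated protein gene, at 0.36. HCG18 stood at -0.20 and TRIM39, a ubiquitin ligase gene, at 0.29. AC020916.1 stood at -0.22 and ZSWIM4 at 0.59. CKMT2-AS1, the pair called higher, stood at -0.18 and CKMT2, a creatine kinase gene, at -1.14, but CKMT2 was at 0.331 to 1.35 CPM. For these 7 pairs the limma adjusted p was 0.021, or 0.045 for CKMT2-AS1. MCM3AP-AS1 missed the threshold (0.051). All 7 calls were lost with the replicate number as a block (adjusted p = 0.060), and HCG18 also with a partner of any biotype (difference 0.05). Leaving out RCC replicate 1 ended every one of them.

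**Figure D5:**
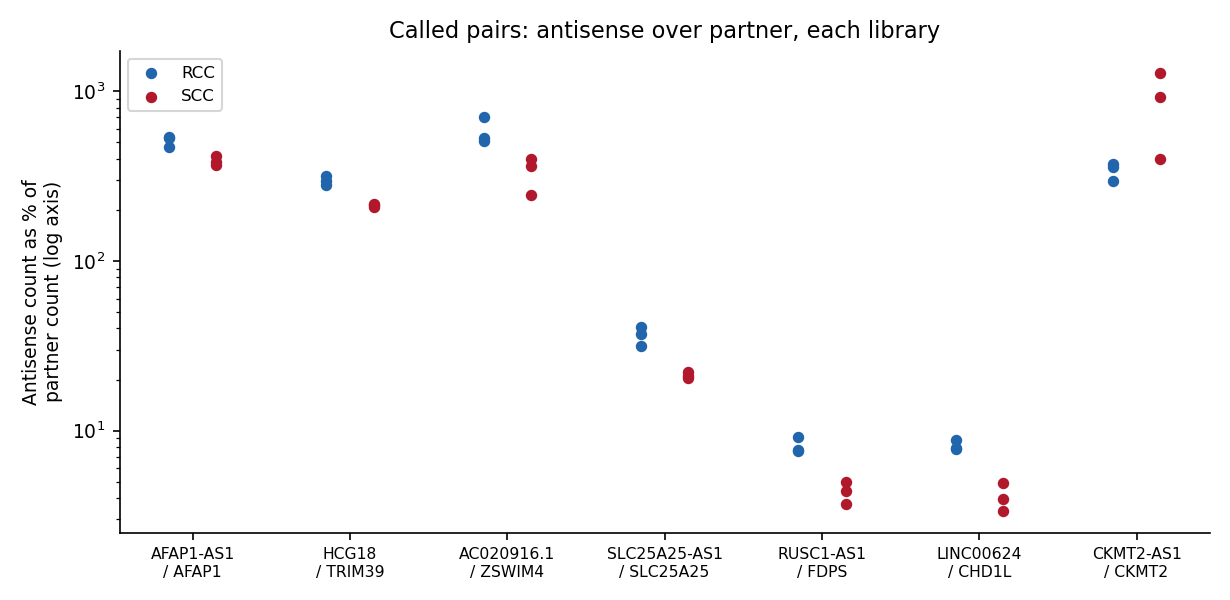
Count of the antisense gene as a percent of its partner's count (y axis, log scale) in each RCC and SCC library for the 7 called pairs. SCC and RCC points are apart in all 7, lower in SCC in 6 and higher for CKMT2-AS1.

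The partner that rose without a called ratio besides CSRNP1 was ZER1, which encodes a substrate receptor of a ubiquitin ligase. It was at 46.5, 34.3 and 35.5 CPM in SCC and 27.6, 27.9 and 25.1 in RCC, with a log2 fold change of 0.53 (edgeR adjusted p = 0.049). Its antisense gene AL441992.1 stood at -0.10.

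Genes that remove or process such RNAs were listed for comparison. Of 24 genes of the nuclear exosome and its adaptors, 0 were called and the median log2 fold change was -0.09. The lowest of the 24 was EXOSC3, a subunit of the exosome core, at -0.26 (edgeR adjusted p = 0.085). The highest was SRRT at 0.18 (edgeR adjusted p = 0.20). Of 19 genes of early termination, mostly the Integrator complex, 0 were called (median -0.02). Of 20 genes that bind or process double-stranded RNA, 1 fell (median -0.07). This was DICER1, the nuclease that makes small RNAs, at 65.1, 75.4 and 76.9 CPM in SCC and 95.4, 90.6 and 102 in RCC, without overlap (log2 fold change -0.41, edgeR adjusted p = 0.035). Over all genes tested, 1.69% rose and 0.378% fell.

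None of the 4 lower calls was kept in every run with 1 library left out, but their log2 fold changes stayed below 0. RUSC1-AS1 lost its call only without RCC replicate 1 (log2 fold change -0.92, edgeR adjusted p = 0.070). KCNQ1OT1, MCM3AP-AS1 and LINC00624 each lost theirs in more than 1 of these runs. Without RCC replicate 1, 0 of the antisense genes were called lower in edgeR's test, and without SCC replicate 2, 10 were. The numbers were 6 without SCC replicate 1, 1 without SCC replicate 3, 2 without RCC replicate 2 and 1 without RCC replicate 3. The shares over all genes in these runs are not given here. Partner calls rose too, to 9 higher and 5 lower without SCC replicate 1 and to 9 and 4 without SCC replicate 2. An offset for GC content gave 2 higher and 9 lower (backgrounds 3.29% and 1.54%), and testing all genes with any count gave 2 and 10 (2.65% and 0.838%). With the replicate number as a block there were 1 and 6 (2.2% and 0.667%). The median stayed below 0 in every alternative run.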

How the data were processed

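RNA-seq counts per gene and FPKM values were deposited by the authors for 6 libraries. HISAT2 2.0.5 and featureCounts 1.5.0-p3 are named in the submitters' processing notes. Their settings, the use of strand and the genome build are not given in the sources used here, and the labels name an NEBNext Ultra kit. All 58735 rows carried the IDs and positions of GENCODE release 29 on GRCh38, and 27 altered row names were restored by gene ID. The authors' deposited FPKM values were used for levels between genes and in alternatives.

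Counts were filtered with filterByExpr (minimum count 10), scaled by TMM and tested on group alone with edgeR 4.0.16 in R 4.3.3, two-sided, with Benjamini-Hochberg adjustment over 15881 genes. Log2 pair ratios (prior count 0.5) were tested with limma 3.58.1 over 737 pairs. A partner is the opposite-strand protein-coding gene with the longest overlap. Both tests were tried on simulated counts with a common dispersion. There edgeR called 83.0% of 2-fold and 69.0% of 1.5-fold changes, and the pair test called 48.3% of 2-fold changes. The genes changed for edgeR were drawn from all genes tested (median 19.6 CPM). The 160 antisense genes had a median of 5.60 CPM, so these rates do not describe them. A gene or pair that was not called can therefore still differ. Named were called genes, the 8 most abundant, those nearest the level, their partners and a list of known antisense genes. Genes named beyond these were picked with their values in view. The members and lists were chosen with earlier results of these data known. Alternatives were DESeq2 1.42.0, other scalings and filters, thinning, a GC offset, a replicate block, limma on FPKM and each library left out.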

Additional observations from a re-analysis of the deposited data

How the results depend on the processing

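The median of the antisense genes stayed below 0 under all alternatives run, at -0.11 on log2(FPKM + 1) with a filter, -0.10 without one, and -0.16 to -0.12 with 1 library left out. Their lower share of counts in SCC, a difference of -0.0181 percentage points, ran from -0.0207 to -0.0157 with 1 library left out. Called antisense genes, 1 higher and 4 lower, became 2 and 10 with every gene of at least 1 count and 2 and 9 with the GC offset. On FPKM with a filter they were 1 and 1 of 134 tested, AC010761.1 and RUSC1-AS1, at either pseudocount. That filter removed AC092053.3, KCNQ1OT1, MCM3AP-AS1 and LINC00624, so these were not retested there. On FPKM without a filter the calls were 0 and 0. With 1 library left out, called antisense genes ran from 1 to 2 higher and 0 to 10 lower. The shares over all genes are not given here for runs with 1 library left out. Partners, 3 higher and 0 lower, became 5 and 2 by DESeq2, 10 and 2 with every gene of at least 1 count, and 5 higher with the GC offset, and ran from 2 to 9 and 0 to 5 with 1 library left out. Of the 160 antisense genes, 120 lay under 10 CPM, where fewer reads stand behind each value.

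The replicate numbers were not taken as pairing, since the deviations of same-numbered libraries correlated at -0.01, 0.02 and -0.08. With them as a replicate block, 1 antisense gene was higher and 6 lower, and called pair ratios went from 1 higher and 6 lower to 0 and 0. With the block and the GC offset together, 2 antisense genes were higher and 11 lower, and 7 partners were higher and 1 lower. With 1 library left out, pair ratios ran from 0 to 1 higher and 0 to 4 lower. The cause was not tested.

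Signs changed for genes close to 0. With 1 library left out, AFAP1-AS1 ran from -0.12 to 0.014, THAP9-AS1 from -0.25 to 0.013, MCM3AP from -0.017 to 0.11, CHD1L from -0.095 to 0.036 and THAP9 from -0.18 to 0.24. With the GC offset, alone and with the block, CHD1L stood at 0.0085 and 0.0074, THAP9 at 0.11 and 0.13, and NNT at 0.0076 and 0.0071. Thinned to the smallest library, THAP9 stood at 0.0068.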
